A study of Mus musculus with 71 samples.

Results

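The response of Spp1-expressing microglia to a stroke in the newborn cortex was set against the response to a stroke in the juvenile cortex. In each stroke the contrast is that of the sorting gates, GFP-positive against GFP-negative microglia, and the quantity examined is the P6 contrast minus the P28 contrast of every gene. The comparison uses 16 of the 71 samples of the series, which are 4 GFP-positive and 4 GFP-negative bulk libraries of each stroke. It was made for the 12413 of 55413 listed genes that reached 1 TPM, the unit of transcript abundance scaled to a fixed total per library, in at least 4 of the 12 columns of both stroke tables.

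All mice were Spp1-GFP heterozygotes, so GFP reports the gene Spp1 in both the sorted positive and the sorted negative cells. The P6 groups had a stroke at postnatal day 6 and were collected at day 9, 3 days later. The P28 groups had a stroke at day 28 and were collected at day 35, 7 days later. Age at stroke, age at collection, the interval between them and the table itself therefore cannot be told apart. GFP-positive and GFP-negative cells came from the stroke side of the cortex, and 4 contralateral libraries per stroke, GFP-negative by their column names, are given as levels. SIMPLE, the name of the model in the labels, is a stroke made by clotting a cortical vessel with magnetically held particles. Each library holds RNA of 2000 sorted cells amplified by a modified SMART-Seq2 protocol, which reads full-length transcripts. The labels do not say whether the libraries of a group come from separate animals or pools, so p-values measure the spread between libraries, which may be technical. The series as a whole is about a reactive microglial state across models, and the comparison of these strokes asks how far that state differs between the newborn and the juvenile brain.

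Microglia are the resident macrophages of the brain. In the adult they hold a homeostatic state, marked by genes such as Tmem119 and P2ry12 that depend on TGF-beta signals. Injury or amyloid brings out a disease-associated state with genes of lipid handling and the lysosome, and Spp1, which encodes the secreted phosphoprotein osteopontin, is one of its strongest markers. In the first postnatal days, amoeboid microglia near developing white matter express many of the same genes without any injury, while they divide and clear dying cells. Interferon-stimulated genes and genes of antigen presentation form further programmes that microglia can add to this state.

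The libraries were of microglia by their defining genes, with P2ry12 at 2015 to 7176 and Csf1r at 3808 to 7207 TPM over the 16 libraries. Between 15899 and 17580 genes were above 0 TPM per library, and the depth in reads is unknown. By Xist and the Y genes, P6 libraries 1 and 2 of each group were male and 3 and 4 female, while the P28 libraries were male. The first principal component, with 47.5% of the variance, separated the strokes. On the second, with 12.4%, GFP-positive library 4 of the P28 stroke lay at -20.5, away from the -45.5 to -39.2 of the other GFP-positive libraries of that stroke. That library was low in Spp1 and in interferon genes and high in MHC class II genes.

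The contrasts differed between the strokes in 819 genes (6.6% of those tested, limma, adjusted p under 0.05). For 396 of them (3.19%) the difference was negative, meaning a lower P6 than P28 contrast, and for 423 (3.41%) it was positive. Of the 396 negative genes, 333 were higher in GFP-positive cells of the P28 stroke and not called in the P6 stroke. A further 21 were lower in GFP-positive cells of the P6 stroke and higher in those of the P28 stroke, and 15 were higher in both. Of the 423 positive genes, 385 were lower in GFP-positive cells of the P28 stroke and not called in the P6 stroke, and 20 were higher in the P6 stroke alone by these calls. In 514 of the 819 genes the contrasts had opposite signs.

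The split between directions depends on the scaling. After median-of-ratios rescaling within each table the counts were 546 negative and 109 positive, so 16.6% of the calls were positive in place of 51.6%. Rescaling moved the median difference of all genes by -0.18, to -0.03 against 0.15 as deposited.

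Within the strokes, the P6 contrast called 442 genes (3.56%), 128 higher (1.03%) and 314 lower (2.53%) in GFP-positive cells. The P28 contrast called 3805 (30.7%), 835 higher (6.73%) and 2970 lower (23.9%). The P6 count moved with each library of its own, to 1117, 221, 42 and 131 without GFP-positive library 1, 2, 3 and 4, and to 120, 123, 198 and 182 without GFP-negative library 1, 2, 3 and 4. The count of differences was 544 without P6 GFP-positive library 3, 528, 535 and 1282 without P28 GFP-positive library 2, 3 and 4, and between 564 and 885 without any other library. With the male P6 libraries alone, 136 negative and 82 positive differences were called, of which 133 and 51 were among those above. No female library of the P28 stroke allows the same for females.

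**Figure D1:**
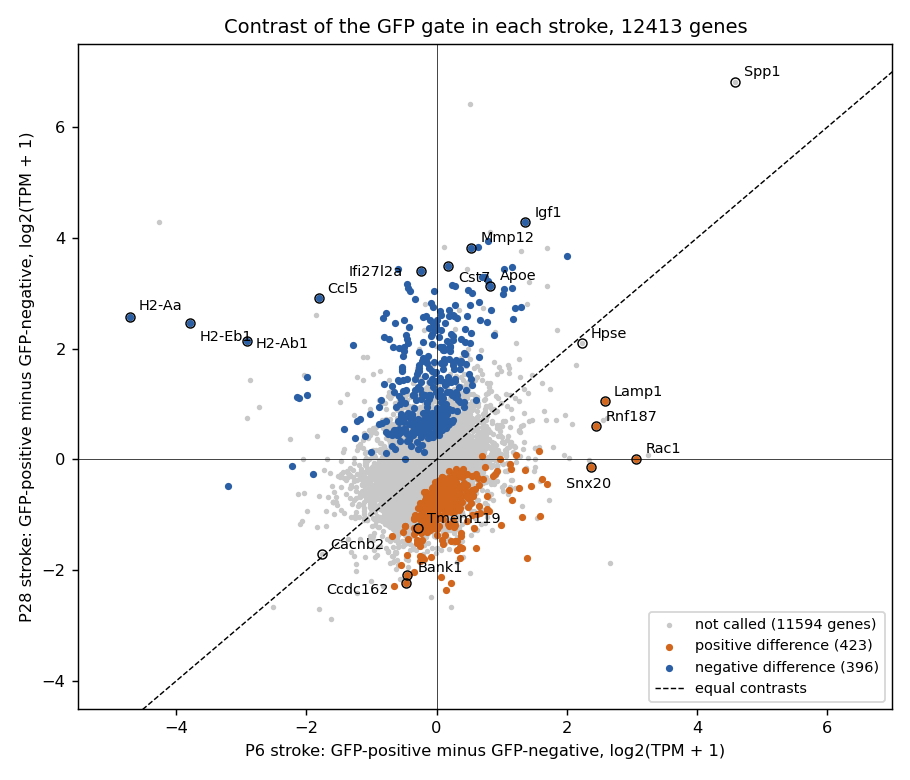
Mean level of GFP-positive minus GFP-negative libraries in the P6 stroke (x axis) and the P28 stroke (y axis), each in log2(TPM + 1), for 12413 genes. Blue points are the 396 genes with a negative and orange points the 423 with a positive called difference, and open circles mark genes named in the text. Blue points lie mostly in a column above 0 on the P28 axis and near 0 on the P6 axis, with H2-Aa, H2-Eb1 and H2-Ab1 to the left, while Rac1, Snx20, Rnf187 and Lamp1 lie to the right.

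Spp1 (chr5:104435118-104441050, plus strand, GRCm38), the gene behind the gate, separated the gates in both strokes. GFP-positive libraries of the P6 stroke had 309, 784, 239.8 and 425 TPM and GFP-negative libraries 15.1, 91.6, 6.41 and 5.97 TPM. In the P28 stroke the values were 607, 3867, 2708 and 308 TPM in the GFP-positive and 11.1, 22.5, 41.6 and 0 TPM in the GFP-negative libraries. The groups did not overlap in either stroke, but GFP-positive libraries of the P28 stroke ranged widely. The P6 contrast of 4.58 and the P28 contrast of 6.82 differed by -2.24 (SE 1.47, 95% interval -5.34 to 0.85, limma adjusted p = 0.408). This difference did not pass the threshold, and its interval leaves room for a large one in the negative direction.

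The largest negative differences were in classical MHC class II genes, whose products present peptides to CD4 T cells. H2-Aa (chr17:34282744-34287823, minus strand), the alpha chain of I-A, had 7.23, 0, 0 and 12.5 TPM in the GFP-positive and 74.1, 159, 23.2 and 178 TPM in the GFP-negative libraries of the P6 stroke. In the P28 stroke it had 143, 169, 89.6 and 694 TPM in the GFP-positive and 14.9, 19.1, 29.4 and 125 TPM in the GFP-negative libraries. GFP-positive cells were thus the lower group in the P6 stroke, without overlap, and mostly the higher one in the P28 stroke. The P6 contrast was -4.71 (limma adjusted p = 0.0138) and the P28 contrast 2.57 (limma adjusted p = 0.0385). Their difference was -7.28 (SE 1.27, limma adjusted p = 0.00264).

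H2-Eb1, the beta chain of I-E, had 11.5, 1.33, 0.38 and 18.6 TPM in the GFP-positive and 59.1, 152, 21.6 and 133 TPM in the GFP-negative libraries of the P6 stroke. The P28 libraries had 108, 157, 81.5 and 619 TPM in the GFP-positive and 15.8, 6.47, 52.0 and 143 TPM in the GFP-negative cells. The P6 contrast was -3.78 (limma adjusted p = 0.0381), the P28 contrast of 2.46 was not called (limma adjusted p = 0.0578), and the difference was -6.24 (SE 1.34, limma adjusted p = 0.0101). H2-Ab1, the beta chain of I-A, differed by -5.05 (limma adjusted p = 0.00414), though its gates overlapped by 1 library in each stroke. Cd74, the invariant chain that guides class II molecules, had a mean of 93.9 ± 17.3 TPM in the GFP-positive and 239.7 ± 83.7 TPM in the GFP-negative libraries of the P6 stroke (SD, n = 4 each). Its P28 mean was 806 ± 691 TPM in the GFP-positive and 173 ± 101 TPM in the GFP-negative libraries, and its difference was -3.35 (SE 0.60, limma adjusted p = 0.00314).

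These were the called members of the MHC class II list, 4 of 11 tested and 12 in all. The genes of peptide loading, H2-DMa (-0.12), H2-DMb1 (0.07), H2-Oa (-0.44) and H2-Ob (-0.33), were not called, nor was the costimulator Cd86 (0.40). The protease Ctss, which trims the invariant chain, had a difference of -0.33 that passed only on some settings (limma adjusted p = 0.0694, and 0.0295 after rescaling). On the uninjured side the P6 libraries had almost no H2-Aa, at a mean of 0.0425 TPM, and the P28 libraries had 10.96 TPM. Without GFP-positive library 4 of the P28 stroke, the highest for all 4 genes, the differences were -6.68 for H2-Aa, -5.62 for H2-Eb1, -4.48 for H2-Ab1 and -2.85 for Cd74, and they stayed past the threshold. With the male P6 libraries alone they were -7.83, -6.61, -5.78 and -3.74, all past it as well.

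Markers of other antigen-presenting cells also differed between the gates, some with and some against the direction of these genes. Their part in the result was not tested. In bulk libraries fewer cells of a kind and less RNA per cell cannot be told apart. Of 10 dendritic cell markers, 4 averaged at least 1 TPM in the GFP-positive and 9 in GFP-negative libraries of the P6 stroke, against 7 in each gate of the P28 stroke. Their summed level was 80.1 to 86.6 TPM in the GFP-positive and 91.2 to 132.9 TPM in the GFP-negative P6 libraries, and 128.8 to 236 TPM in the GFP-positive and 267 to 368 TPM in the GFP-negative P28 libraries. No marker of the list was at 0 throughout a group. Of 4 tested, the actin bundler Fscn1 had a called positive difference (0.73, limma adjusted p = 0.04999), which rescaling ended. In the P28 contrast, where H2-Aa was called higher, 0 of these 4 were called higher and 2 lower in GFP-positive cells. Over all tested genes 6.73% were called higher and 23.9% lower in that contrast. Fscn1 made up much of the sums, with means of 50.4 TPM in the GFP-positive and 64.0 TPM in the GFP-negative P6 libraries. Its P28 means were 128.6 and 268.9 TPM in the same order. The lectin Cd209a had 0, 0, 0 and 1.67 TPM in the GFP-positive and 0.43, 3.76, 0 and 6.93 TPM in the GFP-negative P6 libraries, against 6.82, 2.87, 6.44 and 44.0 TPM in the GFP-positive and 5.23, 0, 0.50 and 9.54 TPM in the GFP-negative P28 libraries. The cytokine receptor Flt3 stayed below 4 TPM in all 16. Its means were 0.27 TPM in the GFP-positive and 2.07 TPM in the GFP-negative P6 libraries, and 2.16 and 1.06 TPM in the P28 ones. Plac8, a gene of monocytes and plasmacytoid cells, had 11.2, 1.77, 2.49 and 1.83 TPM in the GFP-positive and 19.8, 30.6, 5.12 and 28.1 TPM in the GFP-negative P6 libraries. Plac8, Cd209a and H2-Aa all had their lowest GFP-negative value of that stroke in library 3.

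Promoters of class II genes are known for a conserved module that ends in a Y box, so the bases before the leading genes are shown. The Y box, written GATTGG and searched on both strands, was present in the 250 bases before the start of both called class II genes with a promoter entry. It was present in 23.2% of the 8935 tested genes with an entry, so its presence is a description. The sequences are from RefSeq on GRCm38.p6, read 5′ to 3′ on the strand of the gene, with the Y box or its reverse complement in capitals.
H2-Aa, chr17:34287824-34288073, minus strand: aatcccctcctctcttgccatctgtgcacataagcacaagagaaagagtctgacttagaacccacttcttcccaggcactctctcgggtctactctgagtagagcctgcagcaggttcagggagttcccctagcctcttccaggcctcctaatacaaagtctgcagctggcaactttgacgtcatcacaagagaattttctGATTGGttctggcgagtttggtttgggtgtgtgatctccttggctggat
H2-Eb1, chr17:34305617-34305866, plus strand: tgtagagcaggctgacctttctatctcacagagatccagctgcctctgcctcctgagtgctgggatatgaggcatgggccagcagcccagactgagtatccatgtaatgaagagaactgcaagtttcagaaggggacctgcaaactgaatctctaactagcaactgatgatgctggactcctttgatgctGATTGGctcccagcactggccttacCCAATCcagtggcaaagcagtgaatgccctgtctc

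**Figure D2:**
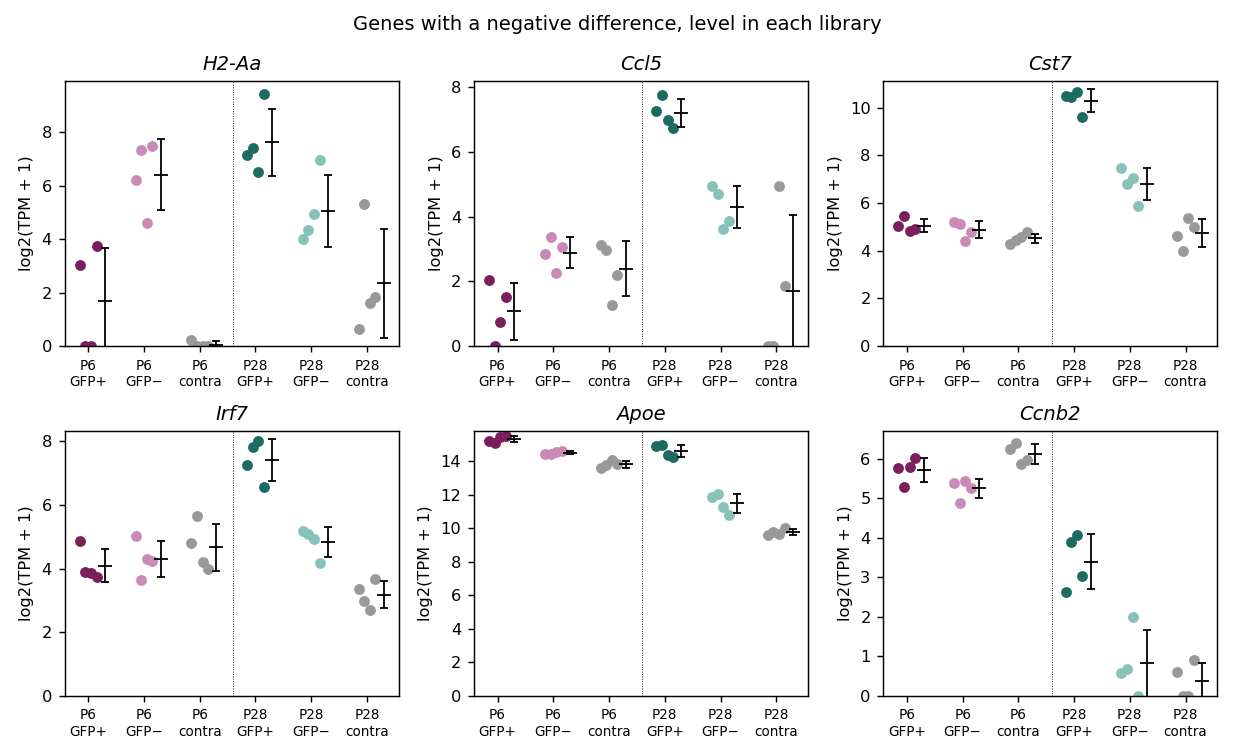
Level of 6 genes with a negative difference in log2(TPM + 1). Points are single libraries of the stroke (GFP+, GFP−) and contralateral (contra) groups, and the black marks give the mean and SD of 4 libraries. H2-Aa is lowest in the GFP-positive and contralateral groups of P6, Ccl5, Cst7 and Irf7 stand out in P28 GFP-positive libraries, and Apoe and Ccnb2 are already high in every P6 group.

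Interferon-stimulated genes were mostly higher in GFP-positive than in GFP-negative cells of the P28 stroke and were not called between the P6 gates. Of 31 tested genes of the list of 32, 23 had a called negative and 0 a called positive difference, with a median of -2.32 against 0.15 over all genes. In GFP-positive cells of the P6 stroke limma called 0 of the 31 in either direction (3 at an unadjusted p under 0.05), at a median contrast of -0.16. In GFP-positive cells of the P28 stroke 29 rose, at a median contrast of 2.23. Without GFP-positive library 4 of the P28 stroke, 28 of the differences were called, and with the male P6 libraries alone 4.

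Irf7, which amplifies type I interferon production, had 28.5, 13.7, 13.6 and 12.4 TPM in the GFP-positive and 31.8, 11.6, 18.5 and 17.8 TPM in the GFP-negative P6 libraries. Its P28 values were 152, 227, 256 and 93.5 TPM in the GFP-positive and 35.7, 32.8, 29.6 and 16.9 TPM in the GFP-negative libraries. Only the P28 gates were apart. Library 1 was the highest of both P6 gates for Irf7 and Ifi204, and library 4 the lowest of both P28 gates. The difference of Irf7 was -2.78 (SE 0.48, limma adjusted p = 0.00253).

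Other called members differed in the same direction. Ifitm3, a membrane protein that blocks viral entry, differed by -2.62, the protease Usp18, which removes ISG15 from its targets, by -1.83, and Ifi44 by -3.10. Ifi27l2a was high in both P6 gates, at 422, 111, 278 and 153 TPM in the GFP-positive and 532, 117, 279.9 and 223 TPM in the GFP-negative libraries. P28 libraries reached 1457, 2059, 2414 and 669 TPM in the GFP-positive and 192, 163, 212 and 55.7 TPM in the GFP-negative libraries, a difference of -3.65 (limma adjusted p = 0.00614). A cluster of DNA-sensing genes on chromosome 1 took part, with Ifi211 (chr1:173896345-173913046) at -4.03, Ifi213 (chr1:173566283-173599274) at -3.43 and Ifi204 (chr1:173747293-173766943) at -2.42. The call of Ifi213 was lost without any 1 of 11 libraries, at an adjusted p of up to 0.0784 (limma). Oas1g, of the family that makes the activator of RNase L, differed by -3.53 (limma adjusted p = 0.00344). These sensor and Oas1 genes have close relatives, so the split of reads among them is uncertain.

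The interferon-stimulated response element, written as GAAA, NN and GAAA without a gap and searched on both strands in the same 250 bases, was present in 9 of the 15 called interferon genes with a promoter entry and in 3.33% of the 8935 tested genes with one. The list is of known interferon response genes, so this share is a description. A match is a stretch of letters, and binding was not measured. The 4 matching genes with the smallest adjusted p of the difference are printed, with matches in capitals, which overlap in Bst2.
Slfn5, chr11:82951852-82952101, plus strand: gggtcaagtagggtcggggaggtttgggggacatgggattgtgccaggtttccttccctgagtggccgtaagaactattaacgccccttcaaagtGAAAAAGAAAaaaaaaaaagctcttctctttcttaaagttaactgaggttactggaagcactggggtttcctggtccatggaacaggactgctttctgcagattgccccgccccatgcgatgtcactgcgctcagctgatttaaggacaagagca
Bst2, chr8:71537473-71537722, minus strand: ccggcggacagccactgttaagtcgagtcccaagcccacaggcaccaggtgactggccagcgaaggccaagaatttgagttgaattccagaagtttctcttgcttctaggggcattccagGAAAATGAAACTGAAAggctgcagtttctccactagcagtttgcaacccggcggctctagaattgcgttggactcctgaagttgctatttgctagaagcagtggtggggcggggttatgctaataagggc
Stat2, chr10:128270248-128270497, plus strand: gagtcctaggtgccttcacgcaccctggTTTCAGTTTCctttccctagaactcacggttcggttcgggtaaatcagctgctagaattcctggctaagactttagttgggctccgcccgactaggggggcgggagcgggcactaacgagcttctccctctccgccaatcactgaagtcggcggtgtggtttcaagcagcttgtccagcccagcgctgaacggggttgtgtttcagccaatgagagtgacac
Cxcl10, chr5:92348890-92349139, minus strand: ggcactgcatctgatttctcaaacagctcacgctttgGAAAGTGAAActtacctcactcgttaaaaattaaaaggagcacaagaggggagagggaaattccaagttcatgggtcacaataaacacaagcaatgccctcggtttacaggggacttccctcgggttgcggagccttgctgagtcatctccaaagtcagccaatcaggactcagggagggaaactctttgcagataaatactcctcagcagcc

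Slfn5 differed by -3.03, Bst2, which tethers virus particles to the cell, by -1.67, Stat2, a factor of type I interferon signalling, by -1.79, and the chemokine Cxcl10 by -3.01. In Stat2 the element stands on the opposite strand and in the other 3 on the strand of the gene.

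Chemokines and cytokines followed, with 11 of 21 tested genes (30 in the list) negative and 0 positive. Ccl5 (chr11:83525778-83530518), which draws T cells and monocytes, had 3.07, 0, 0.68 and 1.86 TPM in the GFP-positive and 6.13, 9.38, 3.76 and 7.41 TPM in the GFP-negative libraries of the P6 stroke. The P28 libraries had 153, 217, 126 and 106 TPM in the GFP-positive and 30.1, 24.9, 11.3 and 13.6 TPM in the GFP-negative cells. The gates did not overlap in either stroke and stood in opposite order. The P6 contrast was -1.81, the P28 contrast 2.91 and the difference -4.72 (SE 0.56, limma adjusted p = 0.000238).

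Il1rn, the antagonist of the interleukin 1 receptor, had 2.19, 7.63, 1.23 and 2.35 TPM in the GFP-positive and 12.1, 5.63, 2.46 and 1.42 TPM in the GFP-negative P6 libraries, against 13.1, 41.3, 43.4 and 11.7 TPM in the GFP-positive and 0.99, 4.14, 0.93 and 1.59 TPM in the GFP-negative P28 libraries. Only the P28 gates were apart, and the difference was -3.63 (limma adjusted p = 0.0102). Ccl3 (-1.97), Ccl2 (-2.34), Ccl4 (-1.63), Ccl12 (-1.67), Tnf (-1.50), Csf1 (-1.98), Pf4 (-1.95) and Cxcl16 (-0.96) were the other called members beside Cxcl10. The call of Pf4 was lost without any 1 of 11 libraries, at a limma adjusted p of up to 0.0808. Il1b (-1.82), Il1a (0.21), Il6 (1.53) and Il18 (0.05) were not called. Bhlhe40, a transcriptional repressor of the clock family, rose in P28 GFP-positive cells and differed by -3.46 (limma adjusted p = 0.00105).

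MHC class I genes, which present peptides to CD8 T cells, were negative in 13 of 17 and positive in 0, at a median of -1.25. With the male P6 libraries alone 6 were called. B2m, the light chain shared by class I molecules, had 5287, 4141, 4939 and 5470.4 TPM in the GFP-positive and 6076, 4832, 5451 and 5571 TPM in the GFP-negative P6 libraries. The P28 libraries had 11841, 12259, 11813 and 9731 TPM in the GFP-positive and 6109, 5873, 5126 and 4995 TPM in the GFP-negative cells. P6 gates overlapped and P28 gates were apart, a difference of -1.19 (SE 0.15, limma adjusted p = 0.000377). The classical heavy chain H2-K1 (-1.68), the nonclassical H2-Q6 (-2.91) and H2-Q7 (-2.81), and Tap1 of the peptide transporter (-1.33) did likewise. The H2-Q genes are close relatives of each other, so the split of reads between them is uncertain. Nlrc5, the activator of class I transcription, differed by -1.88.

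Of 31 tested disease-associated genes (32 in the list), 21 had a negative difference and 0 a positive one. By contrast, 12 were higher in GFP-positive cells of the P6 stroke and 28 in those of the P28 stroke, at median contrasts of 0.35 and 1.53. Over all tested genes the shares called higher were 1.03% in the P6 and 6.73% in the P28 stroke. Amoeboid microglia genes, which share 12 members with that list, were negative in 18 of 24 and positive in 0, with 13 rising in GFP-positive cells of the P6 stroke and 23 in those of the P28 stroke. Their median difference was -1.48.

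A first set of these genes was already present in GFP-negative and contralateral cells of the P6 stroke. Apoe (chr7:19696109-19699188), which carries lipids, had 38692, 35431, 44690 and 47355 TPM in the GFP-positive and 22216, 21962, 24325 and 24666 TPM in the GFP-negative libraries of the P6 stroke. P28 libraries had 30923, 31974, 21235 and 19580.3 TPM in the GFP-positive and 3705, 4303, 2456 and 1758 TPM in the GFP-negative libraries. GFP-positive libraries were the higher ones in both strokes without overlap, and the P28 gap was the larger, with a difference of -2.31 (SE 0.31, limma adjusted p = 0.000581). The contralateral mean was 14528 TPM at P9 and 880.0 TPM at P35. The tables were normalised separately, so levels were not tested between strokes.

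Igf1, a growth factor that amoeboid microglia supply to developing white matter, had 189, 144, 243 and 198 TPM in the GFP-positive and 86.01, 54.6, 74.2 and 82.1 TPM in the GFP-negative P6 libraries. Its P28 values were 49.3, 145, 135 and 42.1 TPM in the GFP-positive and 8.05, 4.15, 2.63 and 0.79 TPM in the GFP-negative libraries, and the difference was -2.92 (SE 0.60, limma adjusted p = 0.0078). Its contralateral mean was 56.9 TPM at P9 and 2.36 TPM at P35. Lpl, which splits triglycerides, differed by -2.43, the fatty acid carrier Fabp5 by -2.32 and the secreted peroxidase Gpx3 by -2.05. Gpx3 averaged 363 TPM in the GFP-positive and 176 TPM in the GFP-negative P6 libraries, against 19.2 TPM in the GFP-positive and 1.36 TPM in the GFP-negative P28 libraries. The endolysosomal tetraspanin Cd63 (-0.79) and the cathepsins Ctsb (-0.92) and Ctsz (-0.65) had smaller negative differences.

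A second set was low in both P6 gates and high in P28 GFP-positive cells. Cst7 (chr2:150570415-150578944), which encodes the protease inhibitor cystatin F, had 32.1, 42.3, 27.6 and 28.8 TPM in the GFP-positive and 35.8, 34.1, 20.1 and 26.8 TPM in the GFP-negative libraries of the P6 stroke. In the P28 stroke it had 1435, 1393, 1619 and 769.8 TPM in the GFP-positive and 178, 109.5, 131 and 57.3 TPM in the GFP-negative libraries. P6 gates overlapped, and P28 gates were far apart, with a P6 contrast of 0.17, a P28 contrast of 3.50 and a difference of -3.33 (SE 0.41, limma adjusted p = 0.000377). The integrin Itgax, which encodes CD11c, had 4.36, 6.56, 4.10 and 5.50 TPM in the GFP-positive and 5.14, 6.98, 3.72 and 4.27 TPM in the GFP-negative P6 libraries, against 59.4, 52.0, 65.5 and 68.2 TPM in the GFP-positive and 19.3, 8.79, 15.7 and 8.58 TPM in the GFP-negative P28 libraries. Its difference was -2.18 (SE 0.34, limma adjusted p = 0.00129).

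Axl, a receptor for dying cells, also overlapped between P6 gates but was not low there, at 94.2, 70.2, 94.3 and 62.5 TPM in the GFP-positive and 95.1, 64.9, 80.7 and 90.7 TPM in the GFP-negative libraries. It had 288, 307, 394 and 191 TPM in the GFP-positive and 46.0, 29.5, 41.6 and 54.1 TPM in the GFP-negative P28 libraries, and a difference of -2.80 (SE 0.30, limma adjusted p = 0.000133). As deposited, both P6 gates of Axl stood above the P28 GFP-negative libraries. Cd52, a small surface glycoprotein, differed by -1.93 (limma adjusted p = 0.000103). Trem2 (-0.10), the receptor that drives much of this state, its companion marker Cd9 (-0.44), the lysosomal Cd68 (0.05) and Ctsd (-0.22) were among the 10 that were not called.

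Related groups held further negative differences. Mmp12, the macrophage elastase, had 6.21, 0.62, 1.17 and 0 TPM in the GFP-positive and 1.25, 1.58, 0 and 0 TPM in the GFP-negative P6 libraries, against 15.7, 14.7, 23.5 and 28.7 TPM in the GFP-positive and 1.76, 0.18, 0.34 and 0.09 TPM in the GFP-negative P28 libraries. Its difference was -3.29 (limma adjusted p = 0.0112), and it was one of 4 called among 15 tested matrix genes of 25, with the sheddase Adam8 (-2.43), the urokinase receptor Plaur (-1.91) and Lox (-1.77). Of 26 tested phagocytic and complement genes, 5 were negative, with complement factor B, Cfb, at -3.23 (limma adjusted p = 0.000713). The complement genes C1qa (0.00) and C1qb (-0.08) and the receptor Mertk (-0.08) were not called. Lipid genes were negative in 8 of 27 and positive in 1, with Apoc1 (-3.20), Fabp3 (-3.15) and the scavenger receptor Cd36 (-2.52) beside those above. Among annexin, galectin, Ms4a and S100 genes 5 of 19 were negative, with the secreted Lgals3bp (-1.87), Anxa2 (-1.97) and Lgals1 (-1.52), and Ms4a6b (0.86) was positive. Iron and redox genes split, 5 negative and 2 positive of 21, with the ferritin heavy chain Fth1 at -0.67 and the iron exporter Slc40a1 at 1.08.

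Of 23 tested mitosis genes 15, of 25 tested replication genes 8 and of 27 ribosomal protein genes 27 rose in GFP-positive cells of the P28 stroke, and 2 replication genes fell there. Over all tested genes 6.73% were called higher and 23.9% lower in that contrast, and 2.53% lower in the P6 contrast. Between the P6 gates limma called 3 ribosomal genes, all lower in GFP-positive cells, and 0 replication genes (1 at an unadjusted p under 0.05). Ccnb2, a cyclin of mitosis, had 53.2, 37.9, 55.0 and 63.7 TPM in the GFP-positive and 41.3, 28.8, 42.4 and 37.7 TPM in the GFP-negative P6 libraries. The P28 libraries had 5.15, 13.8, 15.7 and 7.19 TPM in the GFP-positive and 0.50, 0.61, 3.01 and 0 TPM in the GFP-negative cells. Both P6 gates stood above both P28 gates as deposited, and only the P28 gates were apart. The difference was -2.12 (SE 0.51, limma adjusted p = 0.02), and with a pseudocount of 5 it was -0.90 and not called (limma adjusted p = 0.0887). Mki67, the proliferation marker, had a P28 contrast of 1.78 and a called difference of -1.995. Top2a, the topoisomerase of dividing cells, had a called difference of -1.88. Altogether 5 of 23 tested mitosis genes were negative, and 10 without GFP-positive library 4 of the P28 stroke. In the P6 contrast limma called 0 of the 23 (0 at an unadjusted p under 0.05). Replication genes were called negative in 2 of 25, Ccne1 (-1.42) and E2f1 (-1.22), and in 4 without GFP-positive library 4 of the P28 stroke. Over all tested genes 3.19% had a called negative difference, and 2 of 25 lies near that share.

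Ribosomal protein genes were negative in 24 of 27 and positive in 0, with a median of -0.70. Rpsa, of the small subunit, had 1062, 971, 842 and 778 TPM in the GFP-positive and 1268, 1272, 1192 and 1166 TPM in the GFP-negative P6 libraries, against 708, 681, 727 and 685 TPM in the GFP-positive and 401, 394, 393 and 375 TPM in the GFP-negative P28 libraries. The gates were apart in both strokes and in opposite order, and the difference was -1.27 (SE 0.12, limma adjusted p = 7.32e-05). Rpl19, of the large subunit, differed by -0.93. All 27 genes rose in GFP-positive cells of the P28 stroke and 3 fell in those of the P6 stroke. Of 18 glycolysis genes 5 were negative, with the pyruvate kinase Pkm at -0.75 and Gpi1 at -0.53, and of 23 respiratory chain genes 4 were negative and 0 positive, against 4 and 2 without GFP-positive library 4 of the P28 stroke.

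Of 28 homeostatic genes, 2 were lower in the P6 and 23 in the P28 contrast, at medians of -0.25 and -0.93. Over all tested genes 2.53% were lower in the P6 and 23.9% in the P28 contrast, at medians of -0.13 and -0.30. Among the homeostatic genes the difference was positive for 13 and negative for 0, with a median of 0.69. Rescaling left 4 of these calls at a median of 0.49. Without GFP-positive library 4 of the P28 stroke 18 were positive and 1 negative, and without GFP-positive library 2 or 3 of the P28 or GFP-negative library 2 of the P6 stroke 8 were positive. Tmem119 had 609, 523, 535 and 679 TPM in the GFP-positive and 750.5, 644, 662 and 807 TPM in the GFP-negative P6 libraries, against 1407, 1286, 1255 and 1867 TPM in the GFP-positive and 3764, 3132, 3269.9 and 3466 TPM in the GFP-negative P28 libraries. The P28 gates were apart, the P6 gates overlapped, and the contrasts gave a difference of 0.95 (SE 0.17, limma adjusted p = 0.00309, and 0.75 at 0.0143 after rescaling).

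The fractalkine receptor Cx3cr1 had 1694, 1685, 1652 and 1743 TPM in the GFP-positive and 1679, 1831, 1716 and 1802 TPM in the GFP-negative P6 libraries, against 1881, 1835, 1851 and 2491 TPM in the GFP-positive and 3598, 3289, 3594 and 3607 TPM in the GFP-negative P28 libraries. Its difference was 0.76 (limma adjusted p = 0.00148, and 0.00881 after rescaling). The purine receptor P2ry13 differed by 1.13 and kept its call on rescaling, while the transcription factor Mef2c (0.87) and the cystatin Cst3 (0.62) lost theirs, at limma adjusted p = 0.0674 and 0.199. Csf1r (0.36), Sall1 (0.27) and Fcrls (0.27) were not called.

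Of the 12 named genes with the largest positive differences, 4 rose in P6 GFP-positive cells by these calls and were not called in the P28 contrast. Rac1 (chr5:143503634-143528036, minus strand), a small GTPase that organises actin during migration and phagocytosis, had 209, 761, 799 and 303 TPM in the GFP-positive and 49.8, 59.2, 56.5 and 43.9 TPM in the GFP-negative libraries of the P6 stroke. The P28 libraries had 85.2, 38.8, 84.7 and 103 TPM in the GFP-positive and 57.7, 79.9, 75.4 and 79.8 TPM in the GFP-negative cells. Only P6 GFP-positive libraries stood out, libraries 2 and 3 most of all. The P6 contrast was 3.07, the P28 contrast 0.01 and the difference 3.05 (SE 0.50, limma adjusted p = 0.00181, 2.85 at 0.0024 after rescaling).

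Snx20 (chr8:88626563-88636128), a sorting nexin that binds the selectin ligand PSGL-1, had 29.4, 39.6, 40.0 and 40.1 TPM in the GFP-positive and 5.44, 9.99, 4.28 and 6.73 TPM in the GFP-negative P6 libraries. The P28 libraries overlapped, at 52.3, 14.2, 36.9 and 50.9 TPM in the GFP-positive and 43.5, 43.5, 29.5 and 37.0 TPM in the GFP-negative cells. Here the GFP-negative libraries of the P6 stroke were the low group, and the difference was 2.50 (SE 0.45, limma adjusted p = 0.00291). Ston2, an adaptor of endocytosis, differed by 1.92, and its call was lost without any 1 of 4 libraries (limma adjusted p up to 0.0567). Rnf187, a ubiquitin ligase gene, had 102, 156, 171 and 128 TPM in the GFP-positive and 13.9, 25.2, 22.9 and 41.4 TPM in the GFP-negative P6 libraries and overlapped between the P28 gates. Its difference of 1.85 lost its call after rescaling (limma adjusted p = 0.0306 and 0.058) and without any 1 of 8 libraries (up to 0.0665).

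Lamp1 (chr8:13159161-13175338), the main glycoprotein of the lysosomal membrane, rose in both strokes and by more in the P6 stroke. It had 946, 1692, 1947 and 1216 TPM in the GFP-positive and 212, 318, 226 and 190.1 TPM in the GFP-negative P6 libraries, and 409.5, 278, 492 and 452 TPM in the GFP-positive and 162, 216, 201 and 194 TPM in the GFP-negative P28 libraries. Gates were apart in both strokes, with contrasts of 2.58 and 1.05 and a difference of 1.53 (SE 0.30, limma adjusted p = 0.00554, 1.33 at 0.0172 after rescaling). Among 31 tested lysosome genes 4 were positive and 5 negative, and after rescaling 1 and 9. Lamp2 (-0.30) was not called.

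In the other 8 of the 12 genes the P28 contrast was called lower in GFP-positive cells and the P6 contrast was not called. Bank1, an adaptor of immune receptor signalling, had 15.1, 15.1, 14.0 and 18.8 TPM in the GFP-positive and 19.8, 20.8, 20.7 and 27.1 TPM in the GFP-negative P6 libraries, against 8.63, 7.22, 11.8 and 18.7 TPM in the GFP-positive and 49.3, 42.4, 58.3 and 50.2 TPM in the GFP-negative P28 libraries. GFP-positive libraries were lower in both strokes without overlap, and the P28 gap was the larger, with a difference of 1.63 (SE 0.30, limma adjusted p = 0.00366). Tmem204 fell in P28 GFP-positive cells to 12.8, 14.6, 12.6 and 26.0 TPM, against 76.8, 61.7, 55.4 and 78.2 TPM in the GFP-negative ones, and its difference was 1.68 (limma adjusted p = 0.00742). Klhdc8b (1.99), the clock repressor Nr1d1 (1.95), the phosphodiesterase Pde2a (1.75), Ccdc162 (1.75), the GTPase Rac3 (1.73) and the nuclear factor Akirin2 (1.70) complete the 12. All of the 12 but Rnf187 were called after rescaling. The call of Ccdc162 was lost without any 1 of 5 libraries (limma adjusted p up to 0.0576). Among immediate early and heat shock genes 3 of 19 were positive, Jun (1.01), Dnajb1 (0.73) and Klf6 (0.88), and 0 negative. After rescaling 1 was positive and 1 negative, and without GFP-positive library 4 of the P28 stroke 2 and 2. Dnajb1 lost its call after rescaling (limma adjusted p = 0.0725) and without any 1 of 6 libraries (up to 0.0611).

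**Figure D3:**
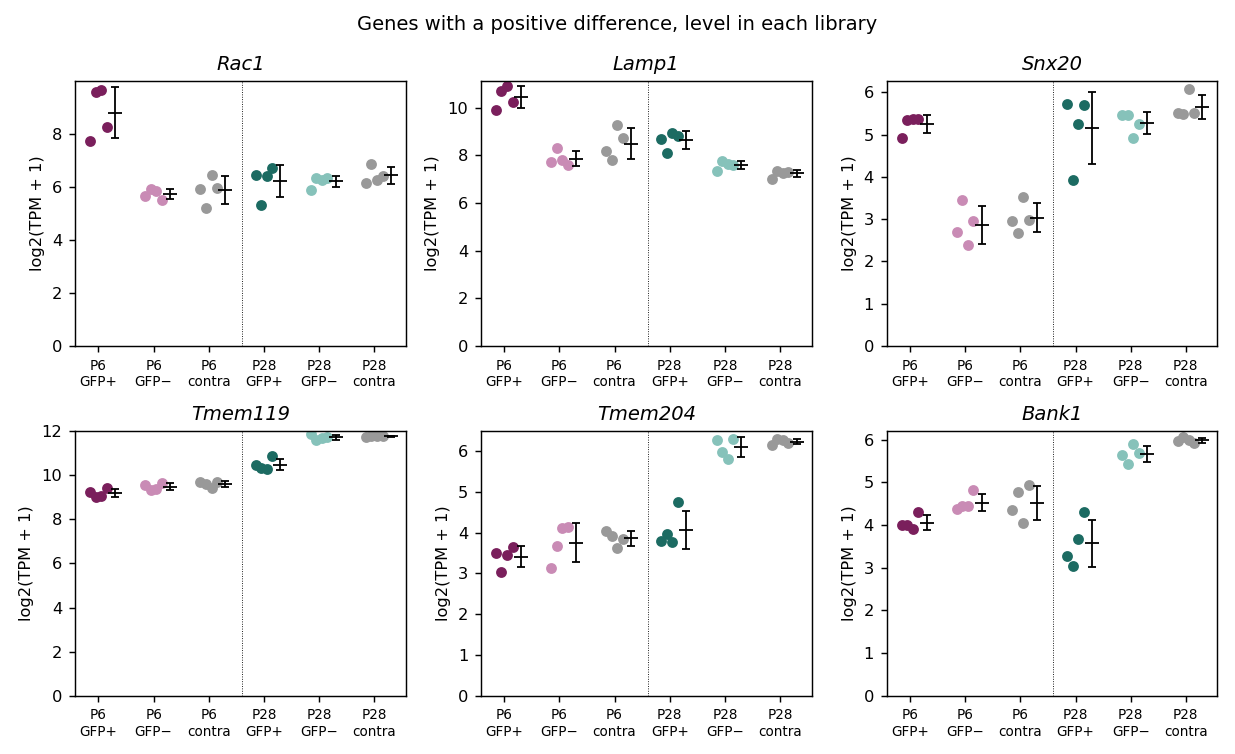
Level of 6 genes with a positive difference in log2(TPM + 1). Points are single libraries of the stroke (GFP+, GFP−) and contralateral (contra) groups, and the black marks give the mean and SD of 4 libraries. Rac1 and Lamp1 are highest in P6 GFP-positive libraries, Snx20 is lowest in P6 GFP-negative and contralateral ones, and Tmem119, Tmem204 and Bank1 are lower in GFP-positive than in GFP-negative libraries mainly in P28.

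For 171 genes (1.38%) the contrasts were called in the same direction in both strokes and the 95% interval of their difference lay within 2-fold either way. Hpse, the heparanase that cuts heparan sulphate in the matrix, had 21.5, 15.8, 29.2 and 18.9 TPM in the GFP-positive and 2.51 to 7.15 TPM in the GFP-negative P6 libraries. The P28 libraries had 4.01, 5.38, 5.79 and 3.27 TPM in the GFP-positive and 0.22, 0.23, 0.45 and 0.26 TPM in the GFP-negative cells. Gates were apart in both, and the P6 contrast of 2.23 differed from the P28 contrast by 0.13 (95% interval -0.67 to 0.92). The P28 GFP-negative values of Hpse lay under the 1 added to TPM. Over 28 other settings its difference ran from -1.10 to 0.71, past the 2-fold limit at the lower end. The pyrophosphate transporter Ank had contrasts of 1.47 in the P6 and 1.53 in the P28 stroke, with a difference interval of -0.69 to 0.57. Scand1 (1.35 in the P6 and 1.26 in the P28 stroke) and the raft protein Rftn1 (1.12 and 1.16) were likewise higher in GFP-positive cells of both strokes.

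Lower in GFP-positive cells of both strokes were the calcium channel subunit Cacnb2 (-1.76 in the P6 and -1.71 in the P28 stroke) and Nav2 (-1.32 and -1.05). The same held for Ivns1abp (-0.94 and -1.19) and the GABA receptor subunit Gabbr1 (-1.11 and -0.98). Cacnb2 had 2.47, 2.31, 1.84 and 0.16 TPM in the GFP-positive and 9.03, 8.34, 5.48 and 7.28 TPM in the GFP-negative P6 libraries, against 3.62, 4.99, 5.01 and 3.70 TPM in the GFP-positive and 15.4, 17.8, 15.1 and 16.8 TPM in the GFP-negative P28 libraries. In these 8 genes the gate had a like contrast in both strokes, within the stated limit and on the log2(TPM + 1) scale.

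Some lists held few or no called differences. Over all tested genes 6.6% were called, and counts of 0 to 2 in lists this small lie near that share. By limma, cholesterol synthesis had 0 of 21 (3 at an unadjusted p under 0.05), TGF-beta signalling 0 of 13 (1), and arginine, polyamine and itaconate metabolism 0 of 8 (1). NF-kB targets had 2 of 18, both negative (Bcl2a1d and Nfkbiz), against 4 negative after rescaling and 3 negative and 1 positive without GFP-positive library 4 of the P28 stroke. Hypoxia genes had 1 of 16, negative, against 3 after rescaling and 1 in each direction without that library. In the unfolded protein response 1 of 19 was negative, against 2 after rescaling and 1 in each direction without that library, and among growth factors Igf1 alone of 7. A p that misses the threshold does not show that the contrasts of these genes were alike.

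**Figure D4:**
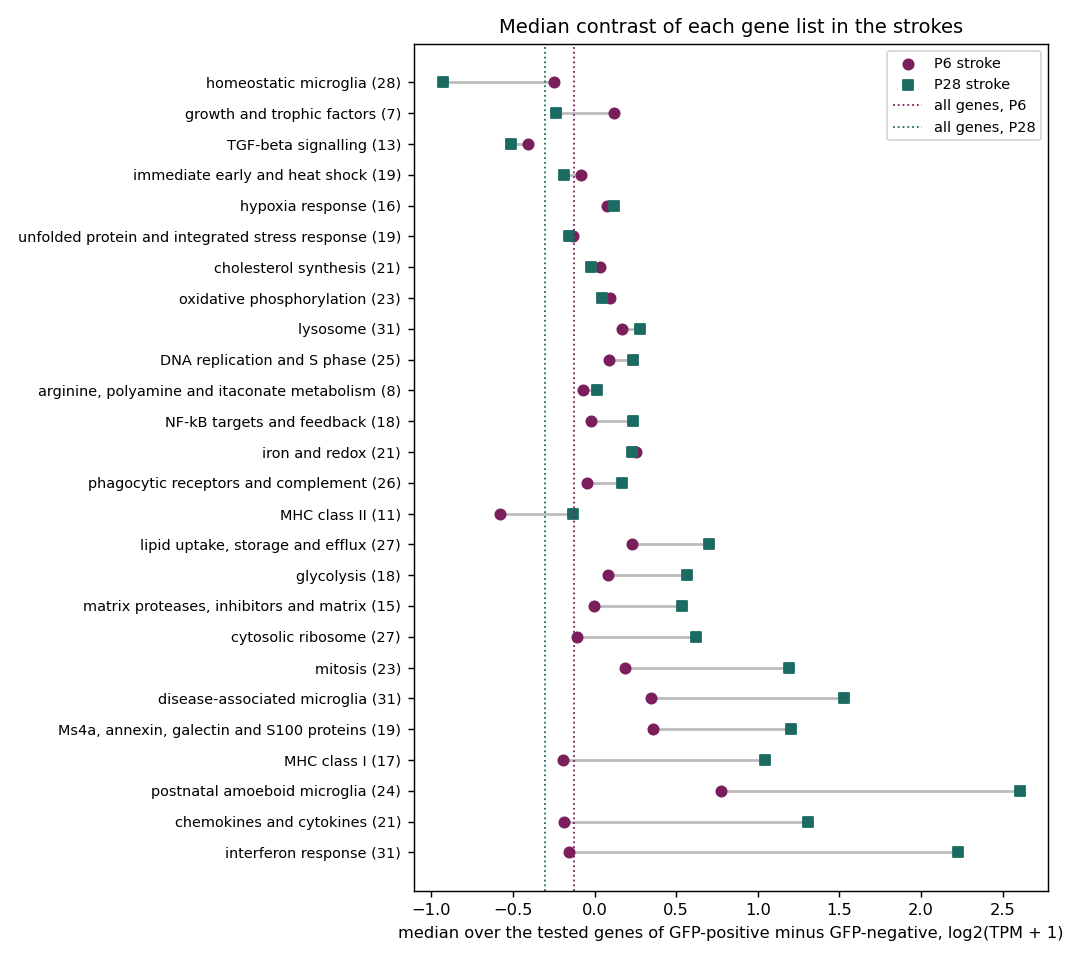
Median contrast between the gates over the tested genes of 26 lists, in log2(TPM + 1), for the P6 stroke (circles) and the P28 stroke (squares), sorted by the median difference, with the number of tested genes in brackets. Dotted lines are the medians of all genes, -0.13 for P6 and -0.30 for P28. The squares of the interferon, amoeboid, disease-associated and class I lists lie far right of their circles, and the homeostatic list is the reverse.

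Markers of other cells included genes that were high in all 16 libraries, such as the scavenger receptor Stab1 at 234 to 585 TPM and the glutamine synthetase Glul at 156 to 1038 TPM, and several moved with the gate. Of 18 monocyte-derived markers 10 were tested and 3 had a negative difference, Plac8 (-3.23), the hyaluronan receptor Cd44 (-1.99) and the integrin Itgal (-1.31). The calls of Plac8 and Itgal were lost without any 1 of 6 and 10 libraries (limma adjusted p up to 0.0598 and 0.0763). Their summed level was 48.5 to 99.7 TPM in the GFP-positive and 52.6 to 101.7 TPM in the GFP-negative P6 libraries, and 93.6 to 243.9 TPM in the GFP-positive and 32.3 to 53.7 TPM in the GFP-negative P28 libraries. The matrix gene Fn1 made up much of the P28 sum, at 34.8, 122, 137 and 15.9 TPM in the GFP-positive libraries. The monocyte receptor Ccr2 had 7.47, 5.86, 3.22 and 49.3 TPM in the GFP-positive and 2.87, 4.98, 3.51 and 8.29 TPM in the GFP-negative P28 libraries, so GFP-positive library 4 was the highest for Ccr2 as it was for class II genes. Ly6c2 was at 0 in 3 of the 4 GFP-positive and in all GFP-negative P28 libraries.

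Border macrophage markers were tested in 10 of 18 and negative in 3, with the folate receptor Folr2 (-2.50), Siglec1 (-2.33), which interferon also induces, and Pf4. Mrc1 (0.29) was not called. Their sum was 778 to 1085 TPM in the GFP-positive and 648 to 979 TPM in the GFP-negative P6 libraries, and 343 to 537 TPM in the GFP-positive and 532 to 633 TPM in the GFP-negative P28 libraries. Stab1 made up most of the P28 sums, at 234, 304, 271 and 368 TPM in the GFP-positive libraries. It had 470, 498, 580 and 495 TPM in the GFP-negative ones. Of the 10 tested markers, 5 were called higher and 2 lower in GFP-positive cells of the P28 stroke. Of 13 neutrophil markers, Retnlg stood out in P6 GFP-negative libraries at 345, 31.6, 72.5 and 57.9 TPM, against 19.9, 1.97, 0 and 0 TPM in the GFP-positive ones, and was at 0 in all P28 libraries. Ly6g, Elane, Ltf and Camp were at 0 throughout. Of 16 T, B and NK cell markers 1 was tested, the B cell receptor subunit Cd79b. It had 109 to 155 TPM in the GFP-positive and 118 to 139 TPM in the GFP-negative P6 libraries, and 36.0 to 50.6 TPM in the GFP-positive and 49.3 to 59.3 TPM in the GFP-negative P28 libraries. Its difference of 0.46 was not called (limma adjusted p = 0.154) and was called without GFP-positive library 4 of the P28 stroke. The other 15 averaged under 4 TPM in each group, with Cd3e above 0 in 3 of 16 libraries and Trac at 0, 13.4, 0 and 0.55 TPM in P28 GFP-positive libraries.

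Markers of glia, neurons and vessels also differed between gates. Glul, which astrocytes use to make glutamine, had 462, 511, 486 and 627 TPM in the GFP-positive and 847, 872, 977 and 1038 TPM in the GFP-negative P28 libraries, while the P6 gates overlapped, and its difference was 0.99 (limma adjusted p = 0.00405). Of 14 astrocyte markers 3 were tested and the difference of Glul alone was called. The sum of the 14 was 189 to 278 TPM in the GFP-positive and 182 to 249.9 TPM in the GFP-negative P6 libraries, and 540.3 to 704 TPM in the GFP-positive and 951 to 1134 TPM in the GFP-negative P28 libraries. Glul made up most of these sums, with Slc1a3 next at P28 means of 68.9 TPM in the GFP-positive and 101.5 TPM in the GFP-negative libraries. The other astrocyte markers with a P28 mean of at least 1 TPM averaged higher in GFP-positive libraries, with overlap. These were Aldoc (3.09 against 1.92 TPM), Clu (1.95 against 0.50 TPM) and Aldh1l1 (1.395 against 0.5675 TPM). The vessel adhesion protein Pecam1 had 3.88, 6.06, 4.85 and 10.9 TPM in the GFP-positive and 27.1, 20.9, 22.7 and 28.8 TPM in the GFP-negative P28 libraries, and its difference of 1.16 was not called (limma adjusted p = 0.0745) and was called without GFP-positive library 4 of the P28 stroke. It was the 1 tested of 16 vessel markers, whose sum was 4.11 to 8.07 TPM in the GFP-positive and 5.11 to 24.9 TPM in the GFP-negative P6 libraries, and 19.1 to 34.5 TPM in the GFP-positive and 30.4 to 36.7 TPM in the GFP-negative P28 libraries. Among the untested ones, Cdh5 was also lower in GFP-positive P28 libraries, at a mean of 1.085 against 4.835 TPM in the GFP-negative ones. Flt1 (2.39 against 0.1575 TPM), Kdr (3.79 against 2.685 TPM) and Cspg4 (11.6 against 1.155 TPM) were higher there.

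Cspg4, the NG2 proteoglycan of oligodendrocyte precursors and pericytes, had 10.98, 16.3, 14.3 and 4.79 TPM in the GFP-positive and 2.75, 1.46, 0.41 and 0 TPM in the GFP-negative P28 libraries, without overlap, and stayed under 1 TPM in both P6 gates. Of the 14 oligodendrocyte markers 4 were tested and limma called 0 differences (2 at an unadjusted p under 0.05, and 1 negative call after rescaling), and Pdgfra was at 0 in every GFP-positive library. Their sum was 84.2 to 91.9 TPM in the GFP-positive and 78.35 to 105.2 TPM in the GFP-negative P6 libraries, and 97.3 to 106.5 TPM in the GFP-positive and 88.8 to 118 TPM in the GFP-negative P28 libraries. None of the 14 neuronal markers passed the filter. Sox11, a transcription factor of young neurons, had 4.07, 0.28, 1.81 and 1.21 TPM in the GFP-positive and 0, 0, 0.04 and 0.08 TPM in the GFP-negative P6 libraries, without overlap. Tubb3, the neuronal tubulin, had 7.33, 0.46, 4.88 and 1.60 TPM in the GFP-positive and 0, 0.91, 0.52 and 0.41 TPM in the GFP-negative ones, which overlapped. In P6 GFP-positive libraries 3 of the 14 averaged at least 1 TPM (Rbfox3, Tubb3 and Sox11), and in GFP-negative ones 1, Stmn2. Stmn2 had means of 0.98 TPM in the GFP-positive and 2.30 TPM in the GFP-negative P6 libraries. Gad1 was likewise lower in the GFP-positive ones, at 0.155 against 0.77 TPM. The neuronal sum was 2.11 to 18.3 TPM in the GFP-positive and 2.66 to 7.96 TPM in the GFP-negative P6 libraries, and 2 to 4.59 TPM in the GFP-positive and 1.22 to 5.71 TPM in the GFP-negative P28 libraries. The part of these cells in the differences was not tested.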

How the data were processed

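The 6 deposited tables list TPM per gene symbol. Per the submitters' processing notes, cutadapt 2.10, STAR 2.7.5c and RSEM 1.3.3 were used on the builds GRCm38 and mm10, among other tools. Their settings and the read depth are not stated. TPM keeps no read depth, so no count test was run. Here log2(TPM + 1) of 16 libraries was fitted with limma 3.58.1 (R 4.3.3), with 4 group means, moderated variances with a trend and no block. The difference of the stroke contrasts was tested on 12413 genes and adjusted by the Benjamini-Hochberg procedure, and a gene is called when that value is under 0.05. Fold changes are on the log2(TPM + 1) scale, which understates those of low genes. The fit was tested on simulated data.

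The members, the 36 gene lists and the tests were chosen with earlier results of these data known. The lists hold 686 genes, 1 of them not in the tables. Named genes are Spp1, the 12 largest differences in each direction (a group mean of at least 10 TPM, called, gates apart in at least 1 stroke), list members with the smallest p (at most 6 per list), and the 8 strongest of the genes with like contrasts. Gene models without a given name, Xist and Y genes were left out, and some genes of the lists are not reported here. Values of other list members were named after being seen. Same-numbered libraries had correlated deviations of 0.02 to 0.12. No block was fitted because the labels do not say that a number marks an animal or a pool. Positions are from GENCODE M21 (53292 of 55413 symbols found), promoters from RefSeq (GRCm38.p6). The 4 hashed single-cell pools were not analysed here. Figures were drawn with matplotlib 3.10.9.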

Additional observations from a re-analysis of the deposited data

Results flagged for a closer look

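The difference of the contrasts, which is itself the test, passed the threshold for 75 of the named genes (limma, adjusted p under 0.05), each given with its P6 minus P28 difference in log2(TPM + 1). Negative in antigen presentation were H2-Aa (-7.28), H2-Eb1 (-6.24), H2-Ab1 (-5.05), Cd74 (-3.35), B2m (-1.19), Tap1 (-1.33), H2-K1 (-1.68), H2-Q6 (-2.91) and H2-Q7 (-2.81). Negative in the interferon and chemokine groups were Ifi211 (-4.03), Ifi27l2a (-3.65), Oas1g (-3.53), Ifi213 (-3.43), Ifitm3 (-2.62), Ifi44 (-3.10), Ifi204 (-2.42), Irf7 (-2.78), Usp18 (-1.83), Cxcl10 (-3.01), Ccl5 (-4.72), Ccl3 (-1.97), Cxcl16 (-0.96), Il1rn (-3.63), Pf4 (-1.95), Siglec1 (-2.33) and Bhlhe40 (-3.46).

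Negative among genes of the disease-associated and amoeboid states and of lipid, matrix and lysosome were Cst7 (-3.33), Cd52 (-1.93), Axl (-2.80), Apoe (-2.31), Lpl (-2.43), Igf1 (-2.92), Gpx3 (-2.05), Itgax (-2.18), Fabp5 (-2.32), Cd63 (-0.79), Fth1 (-0.67), Lgals3bp (-1.87), Ctsb (-0.92), Ctsz (-0.65), Mmp12 (-3.29), Adam8 (-2.43), Cfb (-3.23), Cd44 (-1.99), Plac8 (-3.23), Itgal (-1.31) and Folr2 (-2.50). In growth and metabolism, Mki67 (-1.995), Top2a (-1.88), Ccnb2 (-2.12), Gpi1 (-0.53), Pkm (-0.75), Rpsa (-1.27) and Rpl19 (-0.93) were negative.

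Positive differences were those of Rac1 (3.05), Snx20 (2.50), Klhdc8b (1.99), Nr1d1 (1.95), Ston2 (1.92), Rnf187 (1.85), Pde2a (1.75), Ccdc162 (1.75), Rac3 (1.73), Akirin2 (1.70), Tmem204 (1.68), Bank1 (1.63) and Lamp1 (1.53), of the homeostatic genes Cx3cr1 (0.76), Tmem119 (0.95), P2ry13 (1.13), Mef2c (0.87) and Cst3 (0.62), and of Jun (1.01), Dnajb1 (0.73) and Ms4a6b (0.86).

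Among 344 groups of 4 libraries (86 named genes in 4 groups), the highest or lowest library stood apart from the others in 25 (7.27%) by Dixon's criterion at the 95% level, which chance alone meets in about 1 of 20 groups. GFP-positive library 4 of the P28 stroke did so for 8 genes, highest for H2-Aa (694 TPM), H2-Eb1 (619 TPM), H2-Ab1 (853 TPM), Cd74 (1839 TPM), Cx3cr1 (2491 TPM), Tmem204 (26.0 TPM) and Ivns1abp (447 TPM) and lowest for Fabp5 (53.3 TPM), and library 1 was lowest for Nr1d1 (1.83 TPM). GFP-positive library 1 of the P6 stroke was highest for Irf7 (28.5 TPM), Dnajb1 (29.5 TPM), Plac8 (11.2 TPM) and Ccdc162 (3.20 TPM) and lowest for Snx20 (29.4 TPM), library 3 was lowest for Gabbr1 (2.44 TPM) and library 4 was highest for P2ry13 (533 TPM). Among GFP-negative libraries of the P6 stroke, library 1 was highest for Ifi204 (43.5 TPM), library 2 was highest for Spp1 (91.6 TPM) and lowest for Lpl (71.35 TPM), and library 4 was highest for Bank1 (27.1 TPM). Among those of the P28 stroke, library 4 was highest for H2-Aa (124.8 TPM) and Ms4a6b (121.6 TPM), library 1 was highest for Ctsz (2105 TPM) and Mmp12 (1.76 TPM) and library 2 lowest for Cx3cr1 (3289 TPM).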

How the results depend on the processing

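Of 29 other settings, none turned the direction of a called named gene, and 41 of the 75 kept their call on every setting that could give a value. Without the filter on low values 529 differences were called (239 positive) and 111 genes in the P6 contrast (39 higher, 72 lower). Rescaling by median ratios gave 109 positive differences, 141 genes lower in the P6 contrast and, in the P28 contrast, 2009 genes (1394 higher, 615 lower). With all 24 stroke libraries in the fit the counts were 1242 differences (746 positive) and 883 P6 genes (698 lower), and with each table fitted on its own 108 P6 genes (60 higher, 48 lower). Without a variance trend 264 differences were positive and 84 P6 genes higher. The male P6 libraries alone, a setting added after seeing the data, gave 218 differences (82 positive, 136 negative), and limma called 1 P6 gene (1 higher, 0 lower, with 978 at an unadjusted p under 0.05), and 33 named genes lost their call. Leaving out 1 library at a time gave 528 to 1282 differences (236 to 795 positive, 292 to 487 negative), 42 to 1117 P6 genes (16 to 192 higher, 26 to 925 lower) and 2900 to 4214 P28 genes (695 to 868 higher, 2205 to 3346 lower). Interferon genes were called negative in 15 without the filter, and homeostatic genes positive in 6 without the filter, in 7 without the trend and in 4 with the male P6 libraries. A pseudocount of 0.1 ended the call of Mmp12 (limma adjusted p = 0.134). Causes of these shifts were not tested.

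The labels do not say that equal library numbers mark an animal or a pool, and deviations of same-numbered libraries correlated at 0.020 to 0.124. All 4 GFP-positive libraries of the P6 stroke and 2 of the P28 stroke correlated best with their own number. Sex by Xist and the Y genes also matched by number between the P6 groups. Both are hints of pairing from the data, which the reported fit does not use. With the replicate block 850 differences were called (431 positive, 419 negative), and Dnajb1 and Pf4 lost and Ctss gained a call. The block together with rescaling, also added after seeing the data, gave 150 positive differences, 211 higher and 152 lower P6 genes, and 2030 P28 genes (1424 higher, 606 lower), and there Spp1 passed at -2.42 (limma adjusted p = 0.0455, against 0.408 as reported). Read depth is unknown, so counting error cannot be set apart from other spread.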

Other observations

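The same gate was sorted in a demyelination model (cuprizone), a glioma model (GBM), experimental autoimmune encephalomyelitis (EAE) and an Alzheimer model (AD), with 3, 4, 3 and 4 libraries per gate. Their GFP-positive minus GFP-negative contrasts in log2(TPM + 1) are given as values without a test. Apoe had contrasts of 4.08 in cuprizone, 1.00 in GBM, 0.93 in EAE and 1.45 in AD, and Igf1 4.65, 2.39, 2.65 and 1.90 in the same order, with GFP-positive libraries above all GFP-negative ones each time. Itgax did the same at 3.09, 0.92, 1.42 and 1.61. Cst7 had 3.47, 1.53, 0.99 and 1.45, and its gates overlapped in GBM.

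Irf7 had contrasts of 0.28 in cuprizone, -0.06 in GBM, -0.37 in EAE and -0.15 in AD. Its gates overlapped except in EAE, where GFP-positive libraries were the lower ones. Ccl5, at -0.29, -0.08, 0.05 and -1.19, overlapped in all 4 models. H2-Aa was higher in GFP-positive libraries of cuprizone (2.78) and AD (2.05) and overlapped in GBM (0.06) and EAE (-0.20).

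Rac1 was lower in GFP-positive libraries of cuprizone (-0.83) and overlapped in GBM (0.52), EAE (0.31) and AD (0.22), and Snx20 overlapped in each (-0.39, 0.92, 0.65 and 0.06). Lamp1 was above in cuprizone (0.28) and overlapped in GBM (0.76), EAE (0.86) and AD (0.85). Tmem119 was lower in GFP-positive libraries of cuprizone (-1.94), EAE (-1.02) and AD (-1.56) and overlapped in GBM (-1.21).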
